A study of Mus musculus with 2 samples.

Results

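Oxidative phosphorylation (OXPHOS) subunits are the proteins that make up the 4 respiratory chain complexes and the ATP synthase of the inner mitochondrial membrane. They were selected from the raw gene counts by symbol (mt-Nd, mt-Co, mt-Atp and mt-Cytb genes, Nduf subunits, Sdha to Sdhd, Uqcr, Cox4 to Cox8 and Atp5 genes), without Ndufaf assembly factors, and by protein-coding biotype. This gave 99 of 55416 genes, 13 of them encoded in mitochondrial DNA and 86 in the nucleus. A further 13 rows matched by name and were left out by biotype, 12 of them processed pseudogenes. By complex, the nuclear genes numbered 36 for complex I, 4 for complex II, 8 for complex III, 20 for complex IV and 18 for complex V. Ndufa4 and its paralog Ndufa4l2 were counted under complex IV despite their names.

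Complexes I, III and IV pass electrons from NADH to oxygen and pump protons, complex II feeds electrons in from succinate, and complex V uses the proton gradient to make ATP. The mitochondrial genome encodes hydrophobic core proteins of complexes I, III, IV and V, whereas complex II is wholly nuclear. Both genomes must therefore supply parts of the same machines, and several complex IV subunits also exist as isoforms confined to muscle, testis, lung or other tissues.

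The material was 2 rhabdoid tumors of mice that carried Cre in the Dppa3 locus (an IRES-Cre knock-in, active in primordial germ cells) and 1 floxed Smarcb1 allele (Smarcb1 fl/+), on a C57BL/6 background. The labels give 1 tumor as intracranial and 1 as extracranial and class each as MYC. In the histology of the study, 1 intracranial tumor of this model lay next to the trigeminal nerve and 1 extracranial tumor in the maxillary region. The study does not state that these were the tumors sequenced. Their ages were not given in the sources used here, and neither normal tissue nor Cre-negative tumors were in the count table. Each location is 1 tumor of 1 animal, so nothing below compares the 2 locations as such, and no test between them could be made.

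The libraries held 34545846 and 26915696 counts (intracranial, then extracranial, as throughout). Smarcb1, the targeted gene, had 365 and 530 counts. Markers of other cell types differed. All 6 keratinocyte genes examined were over 4-fold higher in the labelled-intracranial library, with 24447 counts per 1e6 (CPM) in sum against 0.598. Of 7 macrophage genes, 6 lay beyond 2-fold in the opposite direction, at 2769 and 8104 CPM in sum. Of all 21977 genes with 10 or more counts, 7.19% lay beyond 4-fold and 15.6% beyond 2-fold, in either direction. Neutrophil genes summed to 708 and 0.934 CPM and endothelial genes to 100.2 and 239.8 CPM. B and plasma cell genes summed to 3.25 and 25.9 CPM and T cell genes to 11.4 and 26.4 CPM, but not all their members differed. Cd79b alone gave 1.64 and 22.7 CPM, while Cd79a had 19 and 15 counts and Jchain 32 and 40. Among T cell genes, Cd4 (20 and 172 counts) and Cd8a (17 and 222) differed most. Cd3d (73 and 70 counts), Cd3e (61 and 48) and Cd3g (224 and 195) differed little. The libraries are named by their labels only. In bulk tissue, fewer cells of a type and less RNA per cell cannot be told apart.

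Levels are given as CPM after scaling by the trimmed mean of M-values, and levels of different genes are compared only as CPM per kilobase of summed exon length. Ratios are log2 of extracranial over intracranial, with the exact 95% interval of the counts in brackets. These intervals cover counting error alone. Genes with at least 10 counts in sum were called if all of the interval was past 4-fold.

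OXPHOS transcripts took nearly the same share of both libraries. The 99 genes held 5.05% of all counts in the labelled-intracranial library (Clopper-Pearson 95% interval 5.04 to 5.06) and 4.93% in the labelled-extracranial library (4.92 to 4.94). Most of this was mitochondrially encoded, at 4.29% and 4.17%. The 86 nuclear genes together held 0.762% in both libraries, with intervals of 0.760 to 0.765 and 0.759 to 0.766. Within that nuclear share, complex V took 0.260% and 0.259%, complex I 0.215% and 0.213%, and complex IV 0.171% and 0.175%. Complex III took 0.0758% and 0.0721%, and complex II 0.0410% and 0.0435%.

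Per kilobase, the mitochondrial genes stood far above the nuclear ones in every complex that has both. Their median was 1702 and 2203 CPM per kilobase, against 48.1 and 43.7 for nuclear members with 10 or more counts, a ratio of 35.4 and 50.4. This ratio depends on how length and level are summarised. It was 84.0 and 81.7 for summed counts over summed exon length, and 10.2 and 12.8 with the longest coding length of each gene. Per summed exon length, the lowest mitochondrial gene, mt-Nd4l at 542 and 704 CPM per kilobase, lay above the highest nuclear gene of each library. These were Cox6b1 at 230 in the labelled-intracranial library and Cox8a at 282 in the other. This order does not hold per coding length, where Cox7c (133 and 143 CPM over 189 coding bases) passes mt-Nd4l (161 and 209 CPM over 294).

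**Figure D1:**
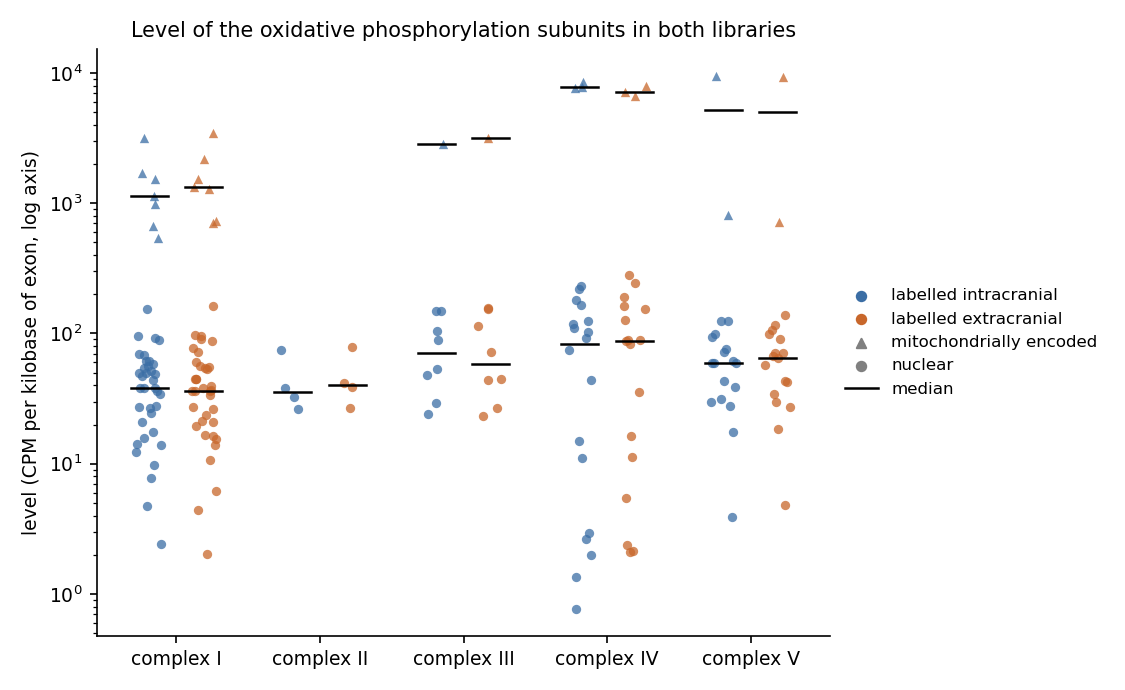
Level of each OXPHOS subunit with 10 or more counts, as CPM per kilobase of exon on a log axis, by complex and library; triangles are mitochondrially encoded genes, circles nuclear genes, and black bars the median of each set. Every triangle lies above every circle of its own library, and Cox8b, at 0 counts in the labelled-extracranial library, is not drawn there.

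Of the 96 members with 10 or more counts, 0 were called at 4-fold, where 7.19% of all 21977 genes tested were called. At 2-fold, 3 members had their whole interval beyond the limit, against 15.6% of all genes tested, and all 3 are nuclear isoforms of complex IV subunits: Cox6b2, Ndufa4l2 and Cox8b. Among the 88 members with 1000 or more counts the count at 2-fold was 0, where 11.6% of the 9131 genes of that depth passed. The 3 members without a ratio, Cox7b2, Cox8c and a second Ensembl entry named Atp5o, had 0 counts in both libraries.

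The members' ratios were small and lay on both sides of equality. The interval lay above 0 for 42 members, below 0 for 32 and spanned it for 22. A total of 90 of 96 (93.8%) differed by less than 1.5-fold, against 58.1% of all genes tested. For genes with 1000 or more counts the share was 98.7% of 75 nuclear members against 75.8% of all. The median log2 ratio was 0.05 for nuclear and 0.12 for mitochondrial members, beside −0.04 for all genes tested. The difference between both medians, 0.08, fell to 0.02 without mt-Nd6. It turned to −0.04 when the summed counts of each genome were compared instead, so no direction between the genomes can be given.

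**Figure D2:**
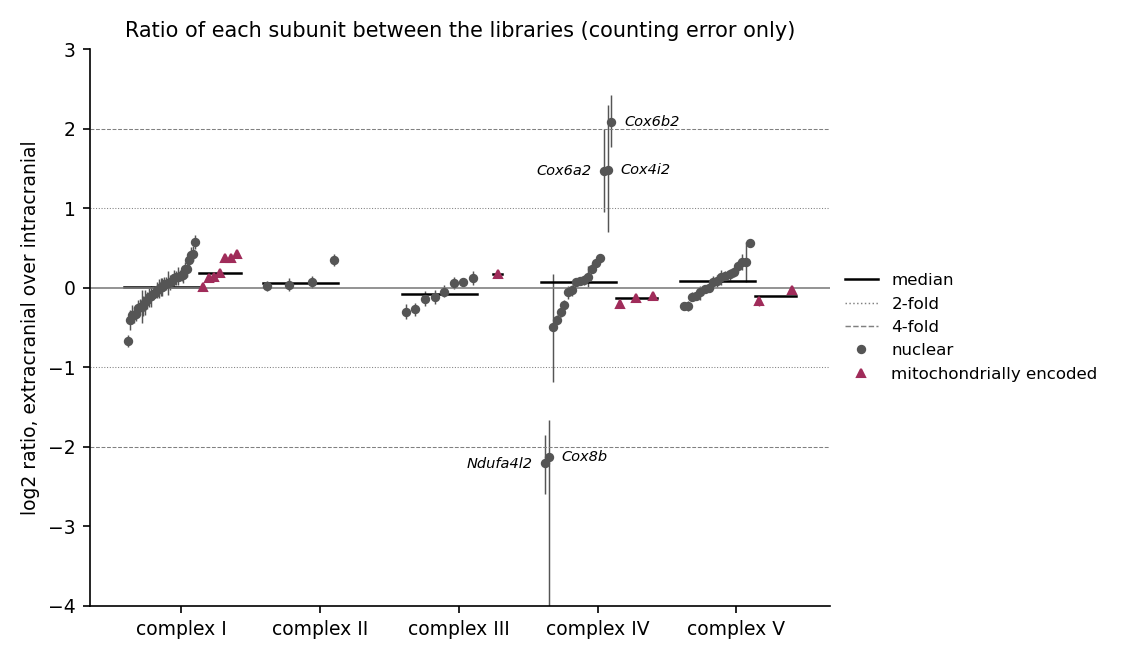
Log2 ratio (extracranial over intracranial) of the 96 OXPHOS subunits with 10 or more counts, by complex and genome; bars are exact 95% intervals of the counts, black lines medians, and dotted and dashed lines mark 2-fold and 4-fold. The only symbols beyond 2-fold are 5 complex IV isoforms; the interval of Cox8b has no lower end because 1 library had 0 counts.

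The ratios of the mitochondrially encoded subunits differed between complexes. All 7 complex I genes had ratios from 0.01 to 0.43, and all 5 genes of complexes IV and V, pooled here, from −0.21 to −0.03. The ratios of both sets did not overlap, but the intervals of mt-Nd3 and mt-Atp6 met at −0.02. In neither set was mt-Cytb, of complex III, at 0.17. The nuclear subunits did not show this order, with medians of 0.01 for complex I and 0.08 for complexes IV and V. The summed counts differed by 0.23 [0.23, 0.24] for complex I and by −0.16 [−0.17, −0.16] for complex IV. The nearest genes of both sets, mt-Nd3 at 0.01 and mt-Atp6 at −0.03, lie close to 0. Another scaling could change the side of 0 on which they lie. These differences are small, at most 1.35-fold for a gene, and with 1 library for each location their spread between tumors is unknown.

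In complex I, mt-Nd2, a proton-pumping membrane subunit, had 35720 and 37032 counts, 1028 and 1384 CPM, a log2 ratio of 0.43 [0.41, 0.45]. The neighbouring subunits mt-Nd4l (5595 and 5594 counts) and mt-Nd4 (81474 and 81243 counts), whose reading frames overlap in the genome, stood at 0.38 and 0.37. Lower in that order came mt-Nd6 at 0.18 (20435 and 17796 counts), mt-Nd5 at 0.13 (42005 and 35404) and mt-Nd1 at 0.12 (104765 and 87860). The intervals of mt-Nd5 and mt-Nd1 overlapped, and that of mt-Nd3 (18421 and 14308 counts), 0.01 [−0.02, 0.04], spanned equality. The gene for mt-Nd6 is the only protein-coding gene on the other strand, and whether reads were counted by strand was not stated, so its reads cannot be told apart from RNA antisense to it.

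The catalytic subunit of complex IV, mt-Co1, was the most abundant of the 99 members by counts, with 413101 and 275178, or 11889 and 10283 CPM. Its log2 ratio, −0.21 [−0.22, −0.20], was the lowest of the 13. The other core subunits of that complex followed at −0.13 for mt-Co3 (213397 and 150018 counts) and −0.10 for mt-Co2 (202715 and 146038 counts). Of the membrane part of the ATP synthase, mt-Atp8 had 5744 and 3937 counts, a ratio of −0.17 [−0.23, −0.11], and mt-Atp6 had 224477 and 169242 counts, a ratio of −0.03 [−0.04, −0.02]. For complex III, mt-Cytb, which carries the quinone-binding sites, had 112980 and 97688 counts, a ratio of 0.17 [0.15, 0.18]. The mitochondrial ribosomal RNAs, which are not messenger RNAs, lay outside this range, with −0.64 for mt-Rnr1 (25915 and 12840 counts) and −0.60 for mt-Rnr2 (51168 and 25925 counts).

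**Figure D3:**
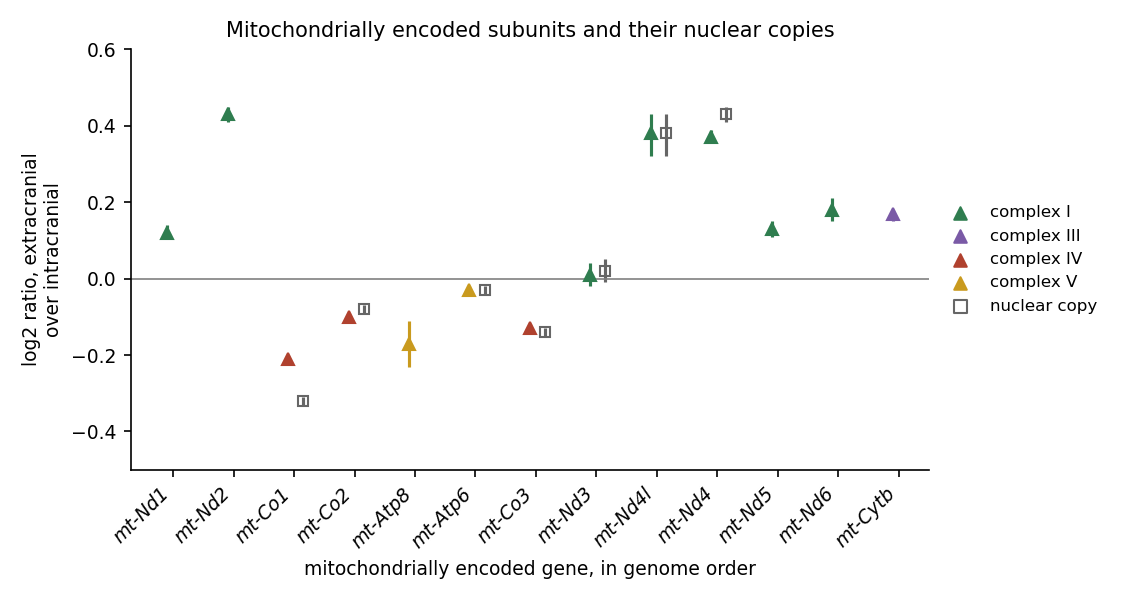
Log2 ratio (extracranial over intracranial) of the 13 mitochondrially encoded subunits in genome order, coloured by complex, with exact 95% intervals of the counts; open squares are the nuclear copy that shares most sequence with that gene. Complex I genes lie at or above 0, complex IV and V genes below it, and each square lies on the same side of 0 as its gene.

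The counts of 7 of these 13 genes are bound up with copies of mitochondrial DNA in the nuclear genome. As the reads were 72 bases long, every 72-base window of each member was searched in the transcripts of all other annotated genes. In mt-Co3, mt-Co2, mt-Atp6, mt-Nd4l and mt-Nd3, 97.8% to 99.9% of windows recurred exactly in a pseudogene on chromosome 1. For mt-Nd4 the share was 61.6%. For mt-Co1 it was 27.7% in its copy on chromosome 1 and 41.2% over both other genes that held any. For the other 6 genes it was at most 6.0% over all other genes. The first 60 bases of the mt-Co2 reading frame (chrM:7013-7072, plus strand, GRCm38, a coding exon) and the matching stretch of the pseudogene Gm28661 (chr1:24615506-24615565, minus strand) are printed to show that a read from there has no base to tell its source:
mt-Co2: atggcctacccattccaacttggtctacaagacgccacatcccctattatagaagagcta
Gm28661: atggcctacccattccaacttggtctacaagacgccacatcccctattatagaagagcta

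Over 681 aligned bases, mt-Co2 and Gm28661 had 0 mismatches. The counts were as close: Gm28661 held 203040 and 148093, which is 100.2% and 101% of the counts of mt-Co2. The copies of mt-Co3 (Gm28437), mt-Nd3 (Gm28438) and mt-Nd4l (Gm10222) held 100.1% to 103% of their gene's count in both libraries, and that of mt-Atp6 (Gm10925) held 113% in both. How reads with several alignments were counted was not stated. Nearly all windows of these genes recur in their copies, so their counts must include such reads. The same read may be in both counts, so gene and copy are not separate measures. The part of such reads in each count was not tested.

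The copy of mt-Co1, Gm29216, aligned with it over 492 bases, 98.8% of them identical. All 6 mismatches fell at its start, here with differing bases in capitals (chrM:6381-6440, plus strand, a coding exon, and chr1:24616138-24616197, minus strand, GRCm38):
mt-Co1: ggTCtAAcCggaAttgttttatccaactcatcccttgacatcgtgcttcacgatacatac
Gm29216: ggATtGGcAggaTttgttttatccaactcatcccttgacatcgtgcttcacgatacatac

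Gm29216 held 197876 and 122082 counts, 47.9% and 44.4% of those of mt-Co1. The copy of mt-Nd4, Gm28439, aligned over 876 bases without mismatch and held 40629 and 42286 counts, 49.9% and 52.0% of its gene. Together, 9 copies of this kind took 3.13% and 2.88% of all counts, which may repeat reads of the mitochondrial genes. Among the 6 genes with under 10% of windows shared, mt-Nd1, mt-Nd2, mt-Nd5, mt-Nd6 and mt-Cytb lay above 0 and mt-Atp8, of complex V, below it. No complex IV gene is among these 6, so the lower ratios of complex IV rest on genes with shared windows.

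Complex I is the entry point for electrons from NADH, and its 36 nuclear subunits had a median log2 ratio of 0.01, with 13 intervals above 0, 14 below and 9 spanning it. Levels ranged from Ndufa2, at 154 and 164 CPM per kilobase, down to Ndufb2, at 2.41 and 2.04, although Ndufb2 has one of the longest summed exon lengths of the list (5628 bases), which lowers this value. Core subunits of the electron-transfer arm lay on both sides of 0. Ndufs7 had 1626 and 1661 counts (0.41) and Ndufs8 1965 and 1929 (0.35), while Ndufv1 had 3130 and 1912 (−0.33) and Ndufs1 2200 and 1337 (−0.34).

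The accessory subunits Ndufa3 and Ndufb4 marked the ends of complex I. Ndufa3 had 2175 and 2493 counts, 62.6 and 93.2 CPM, a ratio of 0.57 [0.49, 0.66]. Ndufb4, of the membrane arm, had 3858 and 1867 counts, 111 and 69.8 CPM, a ratio of −0.67 [−0.75, −0.59]. It was the 1 nuclear member with 1000 or more counts that differed by over 1.5-fold. The level and ratio of Ndufb4 itself are uncertain, because its reading frame of 390 bases is repeated without mismatch in the processed pseudogene Ndufb4c. That pseudogene had 3222 and 1583 counts and a ratio of −0.65. The start of both is printed to show that identity (chr16:37654300-37654359 in a coding exon of Ndufb4 and chr15:73809837-73809896 in Ndufb4c, both on the minus strand, GRCm38):
Ndufb4: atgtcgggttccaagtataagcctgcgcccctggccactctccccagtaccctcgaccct
Ndufb4c: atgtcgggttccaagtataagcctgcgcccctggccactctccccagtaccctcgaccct

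Complex II, the succinate dehydrogenase of the citric acid cycle, had a median ratio of 0.06. The iron-sulfur subunit Sdhb had 2530 and 2488 counts, 72.8 and 93.0 CPM, and its interval lay above 0, at 0.35 [0.27, 0.43]. The flavoprotein Sdha (5483 and 4278 counts, 0.02) and the membrane anchors Sdhc (0.04) and Sdhd (0.07) had intervals that spanned 0. Per kilobase, Sdhd was the highest, at 74.8 and 78.7, and Sdhc the lowest, at 26.2 and 27.0.

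Complex III passes electrons from ubiquinol to cytochrome c. Its 8 nuclear genes selected by symbol had the lowest median of the nuclear sets, −0.08, with 4 intervals below 0 and 2 above. The nuclear subunit Cyc1 did not match the symbols and was counted with the electron carriers (2421 and 1636 counts, −0.19 [−0.28, −0.10]). Of the 8, Uqcr11 had the highest ratio, 0.12 [0.04, 0.21], from 2334 and 1959 counts, and Uqcrb the lowest, −0.30 [−0.39, −0.21], from 2694 and 1685 counts. Among them, the hinge protein Uqcrh was the most abundant per kilobase, at 149 and 156, and the core protein Uqcrc1 the least, at 24.0 and 23.3.

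Complex V had a nuclear median of 0.08, and 17 of its 18 genes had 10 or more counts. Of the F1 head, which forms ATP, the catalytic beta subunit Atp5b had 18445 and 12083 counts, the most of any nuclear member, and a ratio of −0.23 [−0.27, −0.20]. The alpha subunit Atp5a1 had 13593 and 9724 counts (−0.11), whereas the intervals of the stalk subunits Atp5c1 (0.20), Atp5d (0.17) and Atp5e (0.27) lay above 0. Atp5s, the coupling factor B protein, was lowest per kilobase, at 3.88 and 4.84.

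The c-ring of complex V is built from 1 mature protein that is encoded by 3 genes. Atp5g2 had 5499 and 6235 counts, 158 and 233 CPM, a ratio of 0.56 [0.51, 0.61]. Atp5g3 had 5784 and 3787 counts (−0.23), and Atp5g1 had 2979 and 2410 counts (0.07). Per length, Atp5g2 supplied 50.2% (95% interval 49.3 to 51.0) of the c-ring transcripts in the labelled-intracranial library and 62.6% (61.7 to 63.4) in the labelled-extracranial library, and Atp5g3 supplied 40.5% and 29.2%. Without division by length, the share of Atp5g2 was 38.6% and 50.2%. The pseudogene Gm10175, which contains 35.9% of the 72-base windows of Atp5g2, had 4879 and 5538 counts, so the level of Atp5g2 itself is uncertain.

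Complex IV held the members that differed most. Its 12 ubiquitous nuclear subunits lay between −0.40 (Ndufa4, 5292 and 3086 counts) and 0.37 (Cox8a, 4689 and 4676 counts), with a median of 0.08. Cox4i1, the isoform of subunit 4 found in most tissues, had 9695 and 7834 counts, the highest of the nuclear subunits of the complex, at 0.07 [0.03, 0.11]. The 8 tissue-restricted isoforms of the complex, by contrast, were all below 13 CPM, and 5 of them had ratios beyond 2-fold.

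Ndufa4l2 (ENSMUSG00000040280), a paralog of Ndufa4 known as a target of hypoxia-inducible factor and from pericytes, had 422 and 70 counts. This was 12.1 CPM (95% interval 11.0 to 13.4) against 2.62 (2.04 to 3.31), a 4.64-fold higher level in the labelled-intracranial library (log2 −2.21 [−2.60, −1.85]). Per length it made up 9.14% of the Ndufa4 pair in the labelled-intracranial library and 2.78% in the other, while Ndufa4 itself was also lower in the latter. Of 12 hypoxia response genes, 4 had intervals beyond 2-fold, where 15.6% of all genes tested did. All 4 were higher in the labelled-intracranial library, among them Egln3 (538 and 34 counts) and Adm (444 and 38 counts). The list's median was −0.77 and its summed level 1164 and 684 CPM, with Car9 (51 and 92 counts) and Pfkfb3 (844 and 1037 counts) in the opposite direction.

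Pericyte genes did not move in 1 direction beside Ndufa4l2. Of 8 examined, Rgs5 (969 and 2875 counts), Kcnj8 (68 and 312), Abcc9 (113 and 437) and Higd1b (30 and 77) lay beyond 2-fold higher in the labelled-extracranial library, and Notch3 (1989 and 345) and Des (239 and 66) beyond 2-fold in the other. The summed level of the 8 genes was 411.6 and 534 CPM, and no gene was at 0. Of all genes tested, 15.6% had intervals beyond 2-fold. The part of hypoxia genes and of pericytes in the level of Ndufa4l2 was not tested.

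Cox6b2 (ENSMUSG00000051811), the testis isoform of subunit 6b, had 102 and 335 counts, 2.94 CPM (2.39 to 3.56) against 12.5 (11.2 to 13.9). It was 4.27-fold higher in the labelled-extracranial library (log2 2.09 [1.77, 2.43]), and the ubiquitous Cox6b1 stood at 0.08 (5653 and 4613 counts). Its share of the pair per length was 1.14% and 4.43%. Of 5 sperm genes, Akap4, Prm2 and Tnp1 had 0 counts in both libraries, and Odf1 and Prm1 had at most 5, a summed level of 0.0288 and 0.262 CPM.

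The isoforms of striated muscle did not share a direction. Cox6a2 had 47 and 100 counts, 1.35 and 3.74 CPM, at a ratio of 1.47, and its interval began at 0.95, just inside 2-fold. Cox7a1 had 55 and 30 counts, at −0.50 [−1.19, 0.17]. Cox8b (ENSMUSG00000025488) had 17 counts in the labelled-intracranial library and 0 in the other. Against a floor of 3 counts in that library the fold was 4.36, and the interval of the counts ended at 3.18-fold lower. Their shares of the isoform pairs or trio were 1.19% and 3.27% for Cox6a2, 3.12% and 2.32% for Cox7a1, and 0.620% and 0 for Cox8b.

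Of 12 skeletal muscle genes, 9 had 10 or more counts and 8 had intervals beyond 2-fold, where 15.6% of all genes tested did. All 8 were higher in the labelled-intracranial library. The summed level of the 12 genes was 60.4 and 12.1 CPM, with Tnnt3 at 476 and 42 counts, Acta1 at 545 and 173 and Myh4 at 53 and 0. The brown fat genes Cidea (40 and 0 counts) and Dio2 (621 and 13) were likewise higher there and Ucp1 (4 and 59) was lower, for a sum of 19.9 and 2.69 CPM over 4 genes. Of 5 heart genes, 3 had 10 or more counts, with Tnni3 at 345 and 381, Actn2 at 65 and 4 and Tnnt2 at 128 and 4, and the sum was 15.6 and 14.6 CPM. Cox6a2 thus went against the skeletal muscle list and Cox8b with it, and the part of muscle or fat in these isoforms was not tested.

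Cox4i2, the isoform of subunit 4 known from lung and from oxygen-sensing cells, had 21 and 45 counts. This was 0.604 and 1.68 CPM, a ratio of 1.48 with an interval from 0.70 to 2.30. It made up 0.424% and 1.12% of subunit 4 transcripts per length. Cox7b2, a testis isoform, and Cox8c had 0 counts in both libraries, where a floor of 3 counts corresponds to 0.0863 and 0.112 CPM and the exact 95% upper limit is 0.106 and 0.138 CPM for each.

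**Figure D4:**
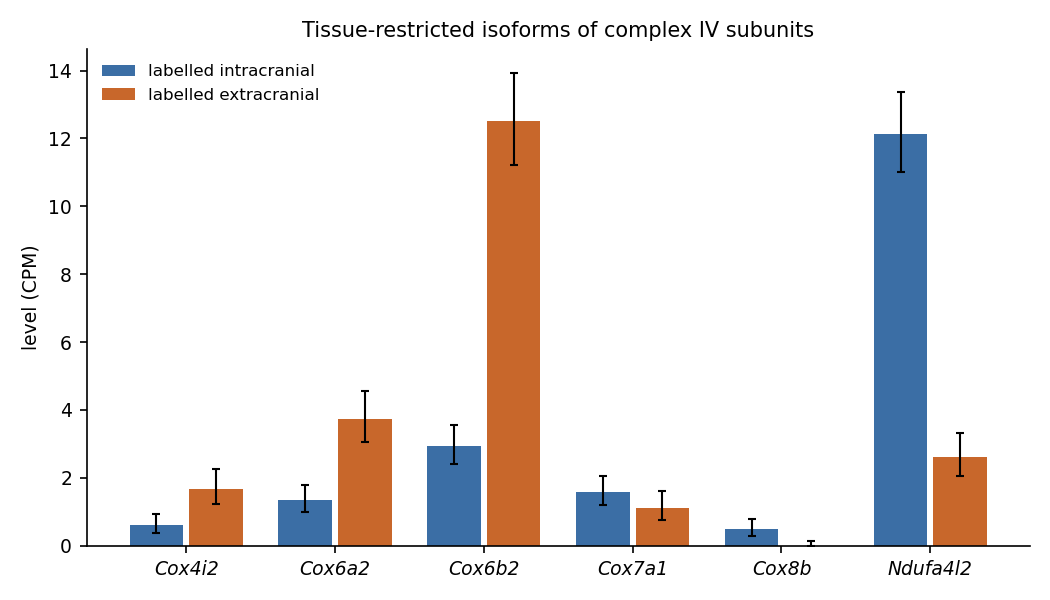
CPM of the 6 tissue-restricted complex IV isoforms with 10 or more counts in both libraries together; bars start at 0 and error bars are Clopper-Pearson 95% intervals of the counts. Cox6b2 is higher in the labelled-extracranial library (12.5 against 2.94 CPM) and Ndufa4l2 in the labelled-intracranial library (12.1 against 2.62 CPM).

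Genes that build, feed or regulate the complexes mostly lay close to equality as well. Beside the counts of calls below, 7.19% of all genes tested were called at 4-fold and 15.6% had intervals beyond 2-fold. Of 54 assembly factors, 52 had 10 or more counts and 0 were called at 4-fold or lay beyond 2-fold. Their median was −0.02, from Uqcc2, which acts on complex III (3721 and 1796 counts, −0.67), to Dmac1, which acts on complex I (822 and 1227 counts, 0.95). Of 77 mitochondrial ribosomal proteins with 10 or more counts, 0 were called and the median was 0.06.

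The 14 genes of the tricarboxylic acid cycle had a median of −0.05, from Suclg2 (−0.60) to Idh2 (0.48), and 0 calls. The electron carriers had a median of −0.19 over 7 genes with 10 or more counts, with Etfdh lowest (−0.49) and Etfb highest (0.26), and cytochrome c itself (Cycs) at −0.35 from 3394 and 2051 counts. The 21 genes of mitochondrial transcription and RNA processing with 10 or more counts had a median of 0.04, from Fastkd5 (−0.65) to Tfb1m (0.27). Tfam, which packages mitochondrial DNA and starts its transcription, had 969 and 693 counts (−0.11 [−0.25, 0.04]), and the mitochondrial RNA polymerase Polrmt had 563 and 516 (0.25).

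Among 11 regulators of mitochondrial biogenesis, 10 had 10 or more counts and 1 was called, where 7.19% of all genes tested were called. It was Ppargc1a, the coactivator PGC-1alpha, with 25 counts in the labelled-intracranial library and 0 in the other. Against the floor the fold was 6.42, and the interval of the counts ended at 4.84-fold lower. The nuclear respiratory factor Nrf1 (829 and 673 counts, 0.08) and Gabpa (1452 and 1062, −0.07) had intervals that spanned 0. Of 9 carriers and uncoupling proteins with 10 or more counts, Ucp1 was called, at 4 and 59 counts. The ADP/ATP carriers Slc25a4 (0.13) and Slc25a5 (−0.14), which exchange the product of complex V, lay close to equality.

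The promoters of the nuclear members were searched for the cores of 3 motifs known from such genes. RefSeq promoters (GRCm38.p6, 250 bases before to 50 after the gene start) were found for 67 of 85 nuclear symbols. GCATGCGC, the core of the NRF1 motif, or its reverse complement GCGCATGC was present for 10 of the 67 (14.9%) and for 3.05% of all 27025 symbols in that table. AAGATGGC or GCCATCTT, of the YY1 motif, was present for 9 (13.4%) and 3.19% of all. CCGGAAGT or ACTTCCGG, of the ETS motif bound by GABP, was present for 5 (7.5%) and 4.31% of all. The symbols of that table were not matched to the members for expression or base composition, so these shares do not show a trait particular to the members. Both letter orders of the NRF1 core overlap where GCGCATGCGC occurs, and a match describes the letters only. Of the genes whose core lay wholly before the start, the 5 of highest counts are printed with the core in capitals, each from its own strand:
Atp5g2 (chr15:102671056-102671115, minus strand): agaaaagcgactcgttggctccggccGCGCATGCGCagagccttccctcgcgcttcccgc
Atp5l (chr9:44920933-44920992, minus strand): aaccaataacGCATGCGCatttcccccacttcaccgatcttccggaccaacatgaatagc
Cox6a1 (chr5:115349087-115349146, minus strand): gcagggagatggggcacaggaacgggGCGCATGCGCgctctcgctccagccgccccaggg
Sdhb (chr4:140961191-140961250, plus strand): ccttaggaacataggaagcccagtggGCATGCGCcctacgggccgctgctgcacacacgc
Ndufa6 (chr15:82354341-82354400, minus strand): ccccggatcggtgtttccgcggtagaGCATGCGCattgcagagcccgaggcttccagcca

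The core began 42 bases before the gene start in Atp5g2, 240 in Atp5l, 162 in Cox6a1, 54 in Sdhb and 83 in Ndufa6. Log2 ratios of these 5 genes were 0.56, −0.12, −0.03, 0.35 and 0.23. Motif and ratio were not tested against each other.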

How the data were processed

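Bulk RNA-seq of 2 tumors was analysed. Per the labels and the study's methods, the authors made directional libraries from poly(A) RNA, aligned single reads of 72 bases to GRCm39 by STAR 2.7.9a and deposited raw read counts per Ensembl gene from featureCounts. Strand use and the treatment of reads with several alignments were not given in the sources used here. Symbols, biotypes and exon lengths came from GENCODE release M21 (GRCm38) for 52135 IDs (94.08%), and only sequences carry its coordinates.

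Library sizes were scaled with TMM (edgeR 4.0.16, R 4.3.3); the quasi-likelihood test could not be fitted without replicates, so no p-value is given. Ratios had conditional exact binomial (Clopper-Pearson) 95% intervals (scipy 1.17.1), and counts of 3 or fewer were set to 3. Reads are not independent molecules, so intervals and floors cover counting error only. All 21977 genes with 10 or more counts were processed alike. The procedure was tested on simulated counts that held counting error alone, so spread between tumors and reads with several alignments were not covered. Named genes were the mitochondrial members, members beyond 2-fold, isoform families, extremes of each complex and of each related list; the core and head subunits named, Cycs, Tfam, Polrmt, Nrf1, Gabpa, the ADP/ATP carriers and the marker genes given as examples were chosen after their values were seen. Other scalings (DESeq2 1.42.0 size factors among them), count filters, call limits and length measures were tried. An item withheld from this text is not reported here. The members and lists were chosen with earlier results of these data known.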

Additional observations from a re-analysis of the deposited data

How the results depend on the processing

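The count of called members stayed at 0 under all 5 other scalings and both count filters. It was 3 with the interval beyond 2-fold and 3 with the ratio beyond 4-fold without an interval. Nuclear medians, overall and by complex, stayed within the members' counting intervals under the 5 scalings, and complex I changed sign, to −0.01, with total counts. The mitochondrial median was 0.14 with DESeq2 size factors, 0.11 with total counts, 0.16 with upper quartile scaling and, in an alternative chosen after seeing the data, 0.15 without members that share 10% or more of their windows. For the mitochondrial genes of complex III the values were 0.18, 0.15 and 0.21 under the 3 scalings in that order, and for complex IV −0.12, −0.15 and −0.09. With upper quartile scaling they were 0.22 for complex I and −0.06 for complex V. Mitochondrial minus nuclear was 0.02 without mt-Nd6 and turned to −0.04 with summed counts. With protein-coding counts as the denominator, mitochondrial genes took 5.18% and 5.05% and nuclear genes 0.921% and 0.924%. Without the nuclear copies in the denominator, also chosen later, these were 4.42% and 4.29%, and 0.787% and 0.785%. The level of mitochondrial over nuclear genes per length was 84.0 and 81.7 for summed counts, 27.8 and 32.8 with the longest transcript and 10.2 and 12.8 with the longest coding length. The construction of each alternative sets these values. No paired analysis was possible because the labels give 1 library for each location, and for the same reason no library could be left out.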
